A study of Mus musculus with 60 samples.

Results

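The results below describe 6 genes of phase II conjugation in 8 tissues of the mouse: the UDP-glucuronosyltransferases Ugt1a6b and Ugt2b5, the cytosolic sulfotransferases Sult1a1, Sult1c2 and Sult1d1, and Papss1, which makes the sulfate donor. The members are every probe set whose RefSeq transcript maps to one of these 6 genes, which gave 7 probe sets of the 962 that carried a gene symbol and of 1246 in all. Ugt2b5 has 2 of them, a plain probe set and one with the suffix x, and both are given throughout. Total RNA of 60 samples from 18 healthy mice of 3 lines was labelled and hybridised, 1 sample to an array, to a custom Affymetrix array, and levels are on the deposited log2 scale, on which a difference of 1 is a 2-fold change.

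In the first line, 5 mice lacked both B4galnt1 and B4galnt2 (-/- for each, here DKO) and 4 were wild type for both (+/+, here WT). Both genes encode N-acetylgalactosaminyltransferases. The DKO mice, 2 females and 3 males, gave 5 kidney, 5 mammary gland, 5 thymus and 3 testes samples. Their WT counterparts, 1 female and 3 males, gave 4 kidney, 2 mammary gland, 3 thymus and 3 testes samples. In the second line, 3 mice lacked St6galnac2 (-/-, here KO), which encodes a sialyltransferase, and 3 were wild type. Those KO mice gave 3 thyroid, 3 lymph node, 3 brain and 2 intestine samples, and their WT counterparts 3, 3, 4 and 3, since 1 WT male gave 2 brain samples. A further set of 3 wild-type C57 mice gave 3 brain and 3 small intestine samples. Each tissue of the first line was therefore measured in other mice than each tissue of the second, and no source used here gives the animals' ages. Where nothing says otherwise, each sample of a group came from its own mouse, and whole organs were measured, so that fewer cells of a type and less RNA per cell cannot be told apart.

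UDP-glucuronosyltransferases sit in the membrane of the endoplasmic reticulum and attach glucuronic acid from UDP-glucuronic acid to drugs, bilirubin, steroids and other small lipophilic molecules. Cytosolic sulfotransferases attach sulfonate from the donor PAPS to phenols, amines and steroids, and Papss1 is one of the enzymes that build PAPS from sulfate and ATP. Both reactions make their substrates more soluble and ready for excretion, and liver, gut and kidney are the tissues best known for them.

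Of the 60 arrays, 4 did not resemble the tissue on their label over the 955 named probe sets that are not members. Each array was correlated with the median profile of every tissue, made without that mouse's own arrays of its labelled tissue. The mean of the tissue profiles was first subtracted from both, so r describes departures from that mean. An array labelled brain of the WT male 9099 correlated with the other brain arrays at r = -0.27 and with the intestine arrays at 0.97, while the array labelled intestine of the same mouse correlated with the other intestine arrays at -0.25 and with the brain arrays at 0.92. The WT thymus arrays of N3738 and N3740 correlated with the other thymus arrays at -0.07 and -0.08 and best with mammary gland, at 0.16 and 0.15. On the remaining 56 arrays the median was 0.94 and the lowest 0.51, and every one of them matched its labelled tissue best. The tissue comparisons leave out those 4 arrays, and the knockout comparisons keep every array under its label and are repeated without them. Levels of the targeted genes overlapped between the genotypes, at 4.73 to 7.93 in DKO and 5.45 to 8.72 in WT arrays for B4galnt1, 3.48 to 8.53 in DKO and 3.58 to 8.09 in WT arrays for B4galnt2, and 5.49 to 8.74 in KO and 5.49 to 8.77 in WT arrays for St6galnac2. Where those probes lie relative to the deleted parts is not given in the sources used here, so these levels do not check the genotypes.

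The members lie on 5 chromosomes of GRCm38.p6: Papss1 on 3, Ugt2b5 and Sult1d1 on 5, Sult1a1 on 7, Sult1c2 on 17 and Ugt1a6b on 1. On chromosome 5 the Ugt2 cluster runs into a sulfotransferase cluster, in the order Ugt2b34, Ugt2b1, Ugt2b35, Ugt2b36, Ugt2b5, Ugt2b37, Ugt2a3, Ugt2b38, Ugt2a1, Ugt2a2, Sult1b1, Sult1d1 and Sult1e1. Probe sets with the suffix s (Ugt1a6b), a (Sult1a1) or x (Ugt2b5) can share probes with other transcripts. The Ugt1a mRNAs have their last exons in common, so the Ugt1a6b probe set may read other Ugt1a members too, and the Ugt2b5 x probe set may read close Ugt2b relatives.

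The promoters of Ugt2b5, Sult1d1 and Sult1c2 are shown here, since kidney or intestine carried their highest levels, with Sult1a1 as the sulfotransferase that was lowest in intestine. Each is the stretch of 250 bases before the RefSeq start of transcription in GRCm38.p6, on the minus strand, at chr5:87140341-87140590 for Ugt2b5, chr5:87569007-87569256 for Sult1d1, chr17:53845959-53846208 for Sult1c2 and chr7:126676419-126676668 for Sult1a1. Capitals mark a match, on either strand, to GTTAAT, the half-site of the HNF1 factors of kidney, gut and liver, or to AGGTCA, the half-site of many nuclear receptors.
Ugt2b5: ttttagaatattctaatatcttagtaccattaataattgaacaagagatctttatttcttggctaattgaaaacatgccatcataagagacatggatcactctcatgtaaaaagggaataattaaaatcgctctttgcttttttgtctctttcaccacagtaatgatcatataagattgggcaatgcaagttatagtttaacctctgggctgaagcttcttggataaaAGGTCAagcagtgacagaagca
Sult1d1: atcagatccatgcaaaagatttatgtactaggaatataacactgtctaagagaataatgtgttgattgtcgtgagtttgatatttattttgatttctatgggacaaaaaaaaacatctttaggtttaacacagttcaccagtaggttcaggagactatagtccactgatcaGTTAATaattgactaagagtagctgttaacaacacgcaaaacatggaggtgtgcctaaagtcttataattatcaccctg
Sult1c2: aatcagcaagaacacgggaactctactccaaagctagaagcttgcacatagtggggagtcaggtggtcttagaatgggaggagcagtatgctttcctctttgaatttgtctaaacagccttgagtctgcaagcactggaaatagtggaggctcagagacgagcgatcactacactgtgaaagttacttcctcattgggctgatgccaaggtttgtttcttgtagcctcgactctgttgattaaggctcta
Sult1a1: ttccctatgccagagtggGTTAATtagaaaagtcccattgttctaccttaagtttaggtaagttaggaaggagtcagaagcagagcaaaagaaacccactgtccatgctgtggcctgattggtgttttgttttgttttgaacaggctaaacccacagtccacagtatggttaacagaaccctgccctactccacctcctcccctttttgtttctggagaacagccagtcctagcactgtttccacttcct
Of the 6 genes, 5 were matched in the RefSeq promoter table. AGGTCA stood 22 to 17 bases before the start of Ugt2b5, GTTAAT 79 to 74 bases before that of Sult1d1 and 232 to 227 bases before that of Sult1a1. Neither motif was found in the Sult1c2 window or in those of Papss1. Among all 32851 promoter windows of the table, 6.43% held GTTAAT and 14.0% held AGGTCA. A match of this kind describes letters and says nothing of what binds there.

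Kidney or intestine had the highest mean level of 5 of the 6 genes. A probe set was called where a tissue differed from the average of the 3 remaining tissues in its line at a limma adjusted p under 0.05 and by at least 1 on the log2 scale. In kidney 5 of the 7 member probe sets were called higher and 1 lower, where 21.8% of all named probe sets were called (12.0% higher and 9.88% lower). In intestine 4 were called higher and 1 lower, against 31.5% of all named probe sets (13.4% higher and 18.1% lower). The median member difference was 2.04 in kidney and 3.57 in intestine, beside medians of -0.13 and -0.24 over all named probe sets. For 5 of the 7 members the 9 kidney arrays did not overlap the 19 arrays of the other tissues, and 12.3% of all named probe sets showed no overlap there. In intestine 5 members likewise showed no overlap between its 4 arrays and the other 18, against 20.9% of all named probe sets.

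In 5 of the other 6 tissues more members were called lower than higher. Brain had 1 called higher and 5 lower, against 34.8% of all named probe sets called (17.8% higher and 17.0% lower). Thyroid had 1 higher and 4 lower against 21.3% (7.69% and 13.6%), and lymph node 1 higher and 4 lower against 25.2% (12.7% and 12.5%). In testes 0 were higher and 4 lower against 31.7% (9.56% and 22.1%), and in thymus 0 were higher and 3 lower against 17.2% (9.36% and 7.8%). Mammary gland had 2 higher and 2 lower, also against 17.2% (13.0% and 4.16%). The median member difference ran between -1.35 in testes and -0.65 in mammary gland over these 6 tissues, while the median over all named probe sets lay between -0.16 and 0.07. These contrasts share arrays, since each tissue is also part of the background of the other tissues of its line. A member high in 1 tissue can thereby be called lower in the others. Both Ugt2b5 probe sets were called lower in thyroid, lymph node and brain, which did not differ from each other (limma adjusted p = 0.756 to 0.983). Sult1c2 was called lower in testes, thymus and mammary gland, which did not differ either (limma adjusted p = 0.117 to 0.787).

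**Figure D1:**
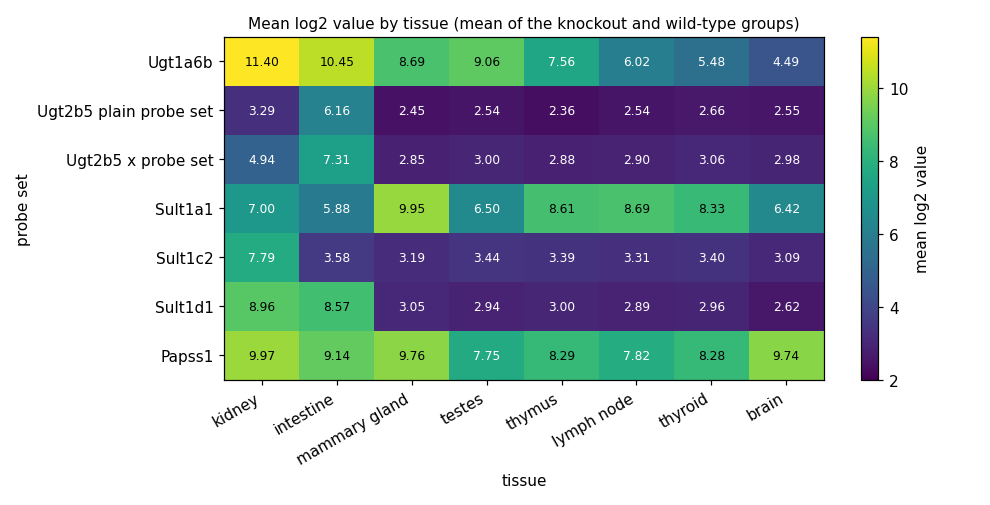
Mean log2 level of each of the 7 member probe sets in the 8 tissues, as the mean of the knockout and wild-type group means without the 4 arrays that did not resemble their labelled tissue. Sult1c2 stands out in kidney alone at 7.79, Sult1d1 in kidney and intestine at 8.96 and 8.57, and Sult1a1 is highest in mammary gland at 9.95.

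**Figure D2:**
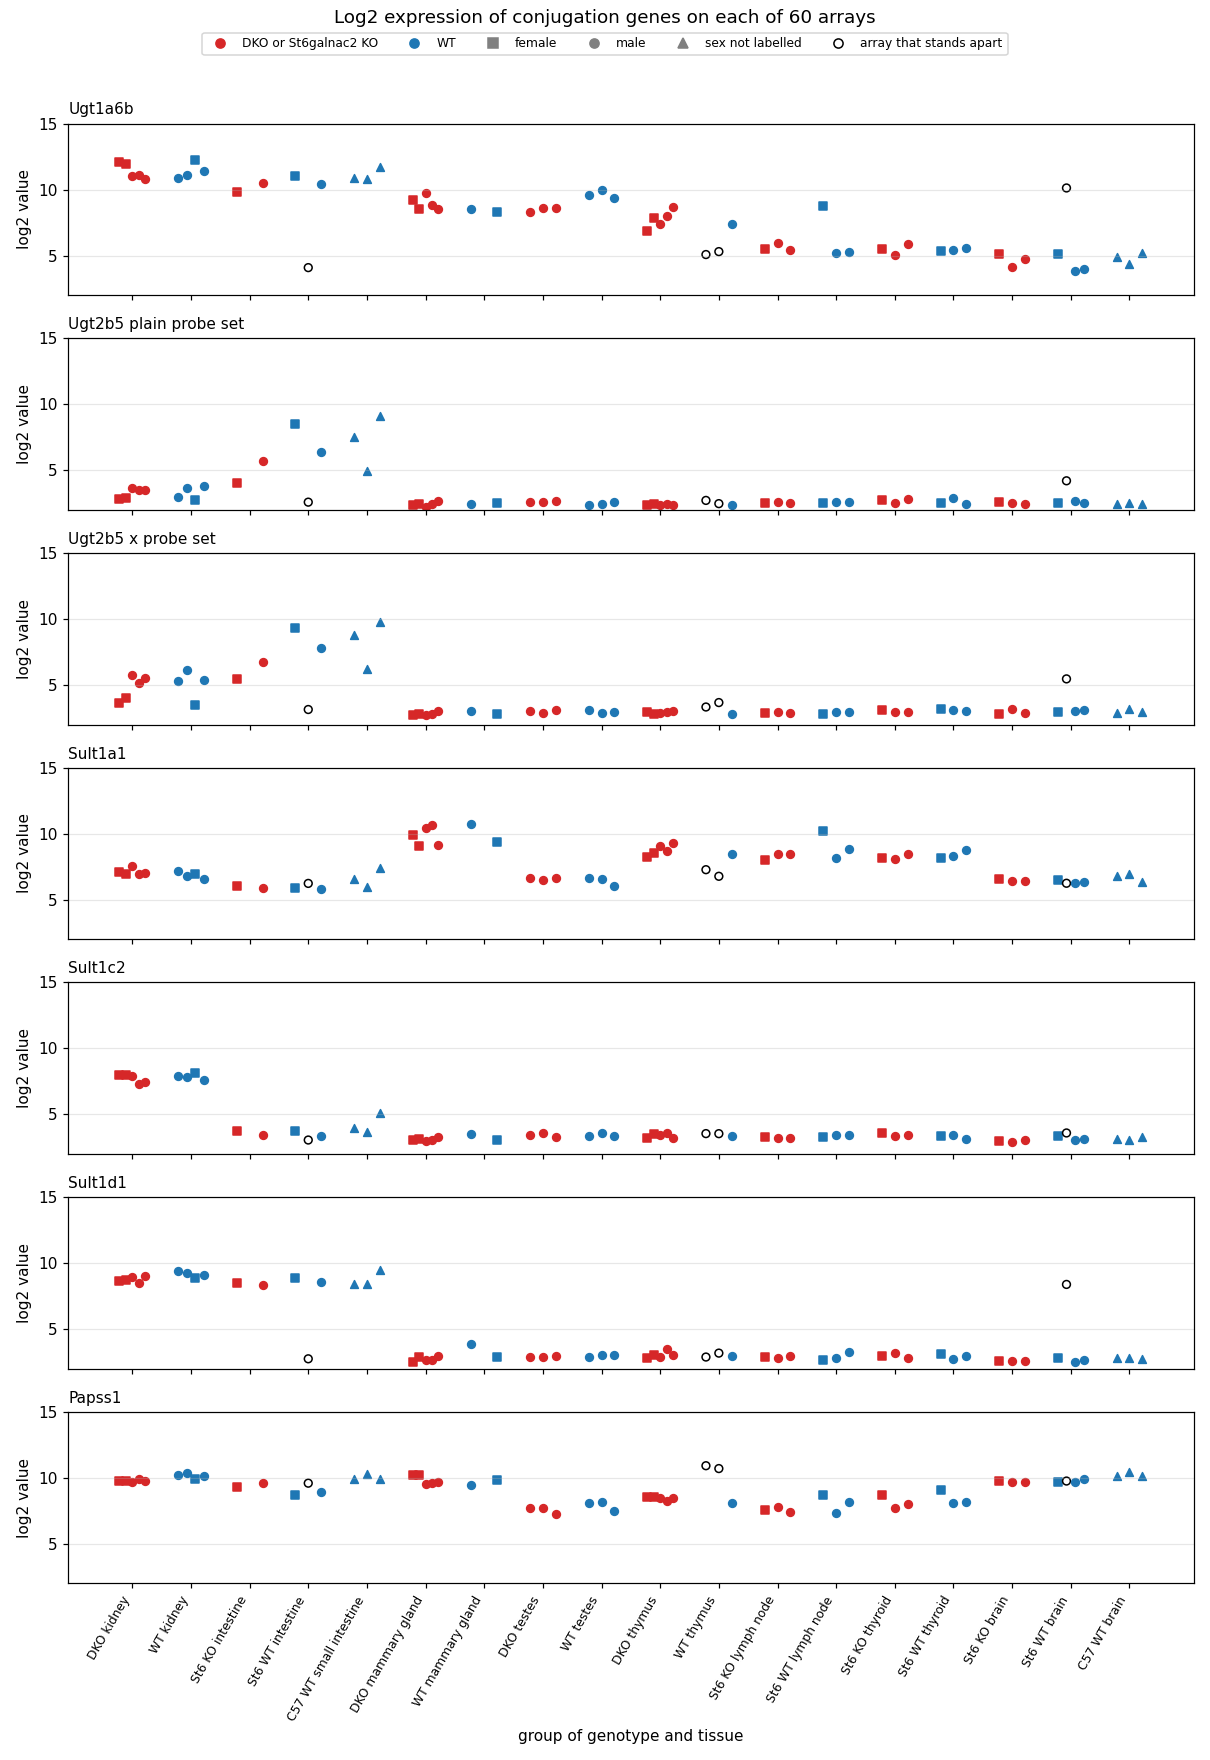
Log2 level of each member probe set on each of the 60 arrays, by tissue and genotype, 1 point per array, with knockouts in red, wild types in blue and the 4 arrays that stand apart as open circles. The points of the arrays labelled brain and intestine of WT mouse 9099 lie at the level of the other tissue for Sult1d1, Ugt1a6b and both Ugt2b5 probe sets.

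Ugt1a6b, an isoform of the UGT1 family that glucuronidates planar phenols, was most strongly detected in kidney. Its levels in DKO kidney were 12.12, 11.96, 11.04, 11.07 and 10.78, against 10.86, 11.09, 12.22 and 11.44 in WT kidney. The 3 highest of these 9 values were those of the 3 females. Kidney exceeded the mean of the other 3 tissues by 2.96 ± 0.28 (SE, limma adjusted p = 2.21e-12), a 7.79-fold difference.

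In intestine of the second line Ugt1a6b read 9.84 and 10.52 in KO mice, against 11.03 and 10.41 in the WT mice 9094 and 9362. All 4 lay above every thyroid, lymph node and brain array kept in the comparison, and the difference was 5.12 ± 0.36 (SE, limma adjusted p = 3.03e-16), 34.8-fold. Small intestine of C57 mice, which did not enter that test, read 10.87, 10.82 and 11.68. Brain was lowest at 4.49 in the mean of its groups and differed from the other 3 tissues by -2.82 ± 0.31 (SE, limma adjusted p = 1.17e-10). The C57 brains, also outside the test, read 4.88, 4.39 and 5.18.

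Between these extremes the order of Ugt1a6b ran over testes at 9.06, mammary gland at 8.69, thymus at 7.56, lymph node at 6.02 and thyroid at 5.48. Testes and mammary gland, mammary gland and thymus, and lymph node and thyroid were neighbours that did not differ beyond their spread (limma adjusted p = 0.393, 0.0590 and 0.224). Kidney over intestine, intestine over testes and thymus over lymph node did differ (limma adjusted p = 0.0388, 0.00347 and 0.00381), but each of those pairs compares mice of different lines, so tissue and line cannot be told apart there. Thyroid over brain, within 1 line, differed by 0.98 ± 0.38 (SE, limma adjusted p = 0.0184). The lymph node mean was raised by 1 array. WT mouse 9094 read 8.75 there, while the other 5 lymph nodes lay between 5.22 and 5.98. That array also had the lowest B cell marker level, with a log2 of the summed level of 9.60 against 11.5 to 12.0 on the others, and the highest connective tissue marker level at 12.3. Of those markers Dcn, Lum and Pdgfra were highest on it, at 11.71, 9.32 and 9.29, while Bgn and Fmod, at 8.56 and 5.62, were the lowest of the 6 arrays. Without it, the lymph node difference of Ugt1a6b was -1.37 and was called (limma adjusted p = 7.44e-06), in place of -0.78 ± 0.31 (SE) with it. The part of the marker levels in that difference was not tested.

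Ugt2b5, a UGT2B enzyme of steroid and xenobiotic glucuronidation, was highest in intestine on both of its probe sets and second in kidney. The x probe set read 5.42 and 6.73 in KO intestine, against 9.29 and 7.80 in the intestine of WT mice 9094 and 9362. On the plain probe set the same samples had 4.04 and 5.67 in KO mice, against 8.52 and 6.40 in WT mice. The array of WT mouse 9099 labelled brain, which resembled intestine, read 5.46 on the x and 4.20 on the plain probe set, within the range of the KO mice. The C57 small intestines spread in the same way, at 8.77, 6.23 and 9.74 on the x probe set and 7.52, 4.95 and 9.12 on the plain one.

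Intestine exceeded the other 3 tissues of its line by 4.33 ± 0.35 on the x probe set (SE, limma adjusted p = 2.27e-14) and by 3.57 ± 0.33 on the plain one (SE, limma adjusted p = 9.48e-13). These are 20.1-fold and 11.9-fold differences. In kidney the x probe set averaged 4.94 and stood 2.04 ± 0.27 above the other tissues (SE, limma adjusted p = 1.54e-08). The plain probe set averaged 3.29 in kidney, 0.84 ± 0.25 above the others (SE, limma adjusted p = 0.00376), which is under the 1 log2 unit needed for a call, although all 9 kidney arrays lay above the other 19. In the other 6 tissues the 2 probe sets averaged 2.36 to 2.66 and 2.85 to 3.06. Those levels lie near the bottom of the array, where 5% of all deposited values are below 2.96 and 10% below 3.35. Across the 60 arrays the 2 probe sets correlated at r = 0.957, and the x probe set read higher on all 60.

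Sult1d1, a sulfotransferase of catecholamines and other amines in the mouse, had the largest kidney difference of the 7 probe sets. It read 8.65, 8.71, 8.94, 8.47 and 9.05 in DKO kidney, against 9.42, 9.24, 8.84 and 9.10 in WT kidney. Every thymus, testes and mammary gland array of the line lay at or below 3.85. The difference was 5.96 ± 0.11 (SE, limma adjusted p = 4.16e-37), or 62.4-fold.

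In intestine Sult1d1 read 8.51 and 8.34 in KO mice, against 8.88 and 8.55 in WT mice 9094 and 9362. The difference from the other 3 tissues was 5.74 ± 0.14 (SE, limma adjusted p = 7.93e-33), or 53.6-fold. C57 small intestine read 8.44, 8.44 and 9.48. The next tissue in the order, mammary gland, averaged only 3.05, and the step between intestine and mammary gland was 5.52 ± 0.17 (SE, limma adjusted p = 2.55e-29) across the 2 lines. The 6 tissues below it averaged 2.62 to 3.05, with no neighbouring pair past the threshold.

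Sult1c2 was called higher in kidney alone of the 8 tissues. This sulfotransferase of phenolic substrates read 7.97, 7.99, 7.93, 7.31 and 7.42 in DKO kidney, against 7.90, 7.83, 8.11 and 7.62 in WT kidney. The other 7 tissues averaged 3.09 to 3.58. Kidney stood 4.45 ± 0.11 above the other 3 tissues (SE, limma adjusted p = 3.86e-33), a 21.9-fold difference, and all 9 kidneys were above all 19 other arrays. Intestine, where Sult1d1 was high, gave 0.32 ± 0.14 for Sult1c2 (SE, limma adjusted p = 0.0362), under the 1 log2 unit needed for a call. The C57 small intestines read 3.97, 3.69 and 5.12, so that 2 of 3 lay above every intestine array of the second line.

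Sult1a1, the main phenol sulfotransferase, showed another order, with mammary gland at the top and intestine at the bottom. DKO mammary glands read 9.93, 9.04, 10.42, 10.66 and 9.18, against 10.76 and 9.35 in WT mammary glands. Every one of these exceeded all kidney and testes arrays, while DKO thymus, at 8.26 to 9.28, overlapped the lower ones. The mammary gland difference was 2.58 ± 0.22 (SE, limma adjusted p = 3.34e-13), 5.99-fold. Within the mammary glands the markers of secretory gland epithelium varied widely between mice. In the order N5891, N5892, N5893, N5894 and N5895 the log2 of their summed level was 5.98, 9.90, 5.95, 6.17 and 12.5 in DKO mice, and it was 9.85 in N3738 and 9.87 in N9686 of the WT. The part of the epithelium in the Sult1a1 level was not tested.

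Lymph node, thymus and thyroid came next for Sult1a1 at 8.69, 8.61 and 8.33, with no difference between neighbours past the threshold. Lymph node stood 1.81 ± 0.22 above the other tissues of its line (SE, limma adjusted p = 1.06e-09) and thyroid 1.33 ± 0.22 (SE, limma adjusted p = 1.05e-06). In intestine Sult1a1 averaged 5.88, and its 4 arrays lay below all 18 others, by -1.94 ± 0.25 (SE, limma adjusted p = 6.14e-09). It was also called lower in testes by -2.02 ± 0.22, in kidney by -1.36 ± 0.19 and in brain by -1.21 ± 0.22 (SE, limma adjusted p = 5.13e-11, 6.73e-08 and 4.03e-06). Kidney thus had Sult1c2 and Sult1d1 higher and Sult1a1 lower than the other 3 tissues of its line.

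Papss1, the donor-making enzyme, read above the median of all deposited values (5.48) on every array. Its tissue means were 9.97 in kidney, 9.76 in mammary gland, 9.74 in brain, 9.14 in intestine, 8.29 in thymus, 8.28 in thyroid, 7.82 in lymph node and 7.75 in testes. Kidney, mammary gland and brain did not differ between neighbours (limma adjusted p = 0.285 and 0.938). Brain exceeded intestine by 0.60 ± 0.19 within 1 line (SE, limma adjusted p = 0.00693), and thyroid exceeded lymph node by 0.46 ± 0.17 (SE, limma adjusted p = 0.0242).

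Against the other tissues of its line, Papss1 was called higher in kidney by 1.37 ± 0.13, in brain by 1.32 ± 0.15 and in mammary gland by 1.08 ± 0.15 (SE, limma adjusted p = 2.21e-12, 8.51e-11 and 4.47e-08). It was called lower in testes by -1.59 ± 0.15 and in lymph node by -1.23 ± 0.15 (SE, limma adjusted p = 6.01e-13 and 7.62e-10). Among the tissues of the second line, brain was the one where it stood apart most cleanly. KO brains read 9.74, 9.69 and 9.69 and the 3 WT brains kept read 9.68, 9.70 and 9.94, all above the 16 arrays of the other tissues, while 26.5% of all named probe sets had no overlap there. The C57 small intestines, outside that test, read 9.90, 9.94 and 10.25, above most of these brains, and the C57 brains reached 10.44. Kidney and mammary gland, with means of 9.97 and 9.76, belong to the other line. No other member was called higher in brain.

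A list of 7 genes was drawn up for UDP-glucuronic acid supply and transport, all of them on the array. It also holds Slc35a3, which carries another nucleotide sugar. Nothing here shows that its members Slc35b1 and Slc35d2 carry UDP-glucuronic acid. The counts of this list are therefore not of UDP-glucuronic acid genes alone. Of these 7 genes 4 were called higher and 0 lower in kidney, where 12.0% of all named probe sets were called higher. In intestine 5 were higher and 0 lower, where 13.4% of all named probe sets were called higher. Their median difference was 1.42 in kidney and 1.75 in intestine, beside the -0.13 and -0.24 of all named probe sets. Ugdh, which oxidises UDP-glucose to UDP-glucuronic acid, was 1.65 ± 0.17 higher in kidney and 2.25 ± 0.22 higher in intestine (SE, limma adjusted p = 2.84e-11 and 6.56e-12). Slc35d1, a transporter of UDP-glucuronic acid into the endoplasmic reticulum, was 1.48 and 1.75 higher, Slc35d2 1.42 and 1.78 higher, and Slc35a3, a transporter of UDP-N-acetylglucosamine, 2.49 and 3.07 higher. Slc35b1 was called in intestine alone, at 1.14.

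In testes 4 of these 7 genes were called lower, where 22.1% of all named probe sets were, and 0 higher, with Ugdh at -3.34 ± 0.19 and Ugp2, which makes UDP-glucose, at -2.42 ± 0.20 (SE, limma adjusted p = 2.70e-19 and 6.49e-14). Ugt1a6b was not called there, at -0.15 ± 0.31 (SE, limma adjusted p = 0.672). Thymus, mammary gland and thyroid each had 1 called higher and 1 lower, lymph node had 0 higher and 3 lower, and brain 0 higher and 1 lower.

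Papss2, the second PAPS synthase, was called in 4 tissues. It was 3.98 ± 0.29 higher in kidney, 2.94 ± 0.37 higher in intestine, -3.40 ± 0.32 in testes and -1.74 ± 0.32 in brain (SE, limma adjusted p = 5.47e-16, 3.43e-09, 1.54e-12 and 6.64e-06), so brain had Papss1 called higher and Papss2 called lower. The PAPS list had only these 2 of its genes on the array beside Papss1: Papss2 and the transporter Slc35b3, which was 1.08 higher in intestine and -1.10 in thyroid.

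Among other sulfotransferases on the array, Sult1b1, next to Sult1d1 on chromosome 5, was an intestine gene. It averaged 8.48 ± 0.19 in intestine (SD, n = 4) and 2.61 to 3.16 in the other 7 tissues, a difference of 5.76 ± 0.14 (SE, limma adjusted p = 7.93e-33), and 8.58 ± 1.04 in C57 small intestine (SD, n = 3). In kidney, where Sult1d1 averaged 8.96, Sult1b1 averaged 3.16 ± 0.09 (SD, n = 9). Sult1e1, the estrogen sulfotransferase on the other side of Sult1d1, was 2.03 ± 0.40 higher in testes and -1.86 ± 0.36 in kidney (SE, limma adjusted p = 2.08e-05 and 1.87e-05). The 4 probe sets of the other UDP-glucuronosyltransferases Ugt1a10, Ugt2a1 and Ugt2a2 were called in 0 of the 8 tissue comparisons. Arsa, a lysosomal sulfatase of cerebroside sulfate, and Arsb, a lysosomal sulfatase of glycosaminoglycans, ran opposite ways in kidney and testes. Arsb was 2.59 ± 0.14 higher and Arsa -1.66 ± 0.11 in kidney, while Arsa was 3.10 ± 0.13 higher and Arsb -1.93 ± 0.15 in testes (SE, limma adjusted p = 2.69e-20, 1.17e-16, 2.47e-24 and 1.21e-14).

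Female and male kidneys differed in the probe sets of both glucuronosyltransferases, in opposite directions. Of all named probe sets 9.04% were called at a limma adjusted p under 0.05 with genotype as a covariate (6.44% higher and 2.6% lower in females), and of the 7 members 1 was called higher and 2 lower. Ugt1a6b read 12.12, 11.96 and 12.22 in the 3 female kidneys, of which the last was WT. In males it read 11.04, 11.07 and 10.78 in DKO and 10.86, 11.09 and 11.44 in WT kidneys. The 3 females lay above all 6 males, and the difference was 1.08 ± 0.12 (SE, limma adjusted p = 0.000368), 2.12-fold. Ugt1a6b remained called with every one of the 9 mice left out in turn, at 1.03 to 1.14.

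The Ugt2b5 x probe set ran the other way. It read 3.65, 3.98 and 3.50 in female kidneys, against 5.78, 5.15 and 5.56 in DKO males and 5.27, 6.14 and 5.36 in WT males. All 6 males were above all 3 females, and the female minus male difference was -1.84 ± 0.20 (SE, limma adjusted p = 0.000304). It stayed between -1.97 and -1.68 with each mouse left out and was called each time. The plain probe set showed the same direction at 2.80, 2.92 and 2.75 in females and 2.97 to 3.83 in males, with a difference of -0.72 ± 0.16 (SE, limma adjusted p = 0.0174). Its call was lost without any 1 of the 3 females (limma adjusted p = 0.0750, 0.0610 and 0.0973 without N5891, N5892 and N9686). All 3 female values on the plain probe set lay below 2.96, as do 5% of all deposited values. The x probe set may also read close Ugt2b relatives.

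**Figure D3:**
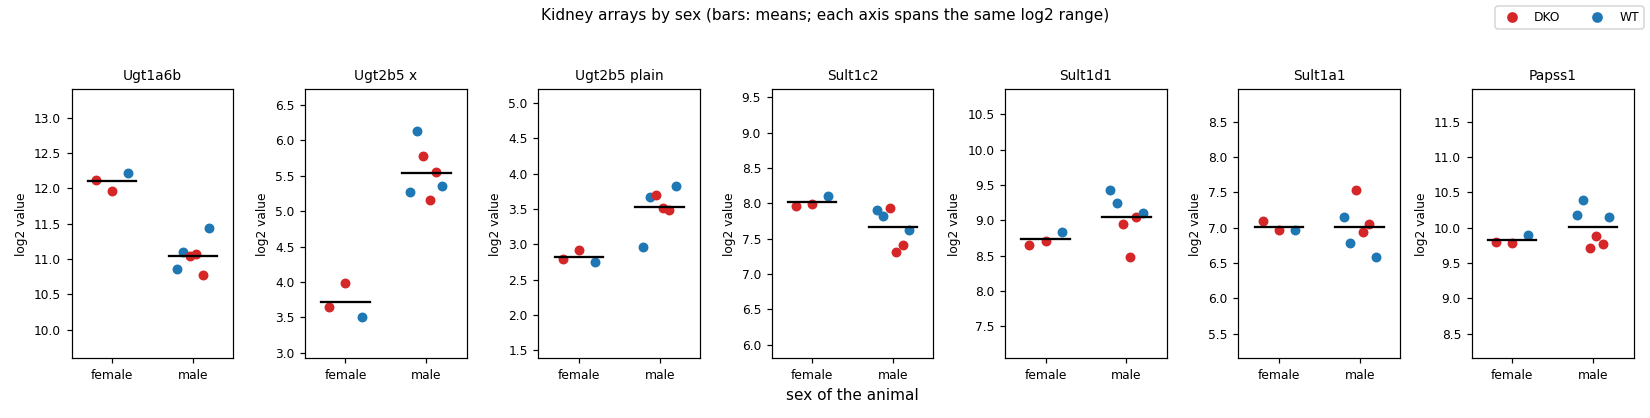
Log2 level of the 7 member probe sets in the 3 female and 6 male kidneys, with females to the left of males, 1 point per mouse and a bar at the mean. Ugt1a6b separates with females higher (means 12.10 and 11.05) and Ugt2b5 x with females lower (3.71 and 5.54).

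No sulfotransferase was called by sex in kidney. Sult1c2 read 7.97, 7.99 and 8.11 in females and 7.31 to 7.93 in males, with no overlap, and differed by 0.39 ± 0.13 (SE, limma adjusted p = 0.0898). Sult1d1 differed by -0.25 ± 0.13, Papss1 by -0.13 ± 0.10 and Sult1a1 by -0.04 ± 0.15 (SE, limma adjusted p = 0.291, 0.432 and 0.907). In all 4 of 7 member probe sets did not overlap between the sexes, against 16.9% of all named probe sets. Of the genes around the members, Papss2 was 0.48 ± 0.12 higher and Slc35b1 fell by 0.29 ± 0.07 in females (SE, limma adjusted p = 0.0254 and 0.0306). Connective tissue markers did not overlap between the sexes either, with a log2 of their summed level of 11.4 to 11.7 in females and 10.9 to 11.2 in males. Kidney tubule markers were at 12.3 to 12.5 in females and 12.1 to 12.3 in males. Their part in the member differences was not tested.

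Mammary gland, from 7 of these 9 mice, gave no member called by sex, against 0.312% of all named probe sets, and 110 of the 962 had a raw p under 0.05 in limma. Papss1 had the smallest p. It read 10.23, 10.23 and 9.85 in females and 9.46 to 9.65 in males, higher in 3 of 3 females where 9.56% of all named probe sets had no overlap, by 0.56 ± 0.11 (SE, limma adjusted p = 0.169). The sex difference itself was compared between the tissues, a test added after the data were seen, in which 3.22% of all named probe sets were called. The kidney difference minus the mammary gland difference was -1.72 ± 0.25 for Ugt2b5 x (SE, limma adjusted p = 0.000164), -0.69 ± 0.19 for the plain probe set and 1.29 ± 0.55 for Ugt1a6b (SE, limma adjusted p = 0.0514 and 0.302). Ugt2b5 was near the floor of the array in mammary gland in both sexes.

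Between DKO and WT mice 1 of the 7 member probe sets was called in any of the 4 tissues, Ugt1a6b in testes. It read 8.30, 8.59 and 8.58 in DKO testes, against 9.61, 9.95 and 9.35 in WT testes. No DKO value reached a WT value, and the difference was -1.14 ± 0.17 (SE, limma adjusted p = 0.0261). Only 0.312% of all named probe sets were called there, all of them lower, while 124 had an unadjusted p under 0.05.

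That call depended on the fit and on single mice. Of 12 alternatives all 12 kept a negative value and 8 ended the call, among them the fit of all groups of the line together (limma adjusted p = 0.458) and a second quantile normalization, which brought the value to -0.67 (limma adjusted p = 0.137). Of these 8, 5 were fits without 1 of the 6 mice. Over all 6 such fits the value was -1.28 to -0.98 and the limma adjusted p = 0.000877 to 0.185. The WT mice N3738 and N3740, whose thymus arrays stood apart, also gave 2 of the 3 WT testes, and without both, which leaves 1 WT testis, the value was -0.85, a choice made after the data were seen. The germ cell marker Galntl5 read 11.7, 11.8 and 12.1 in DKO testes, against 11.4, 11.4 and 11.7 in WT testes. Its part in the Ugt1a6b difference was not tested.

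Other members showed smaller testes differences. Papss1 read 7.71, 7.71 and 7.27 in DKO testes, against 8.12, 8.20 and 7.50 in WT testes, and differed by -0.38 ± 0.20 (SE, limma adjusted p = 0.471). It was called, at -0.60 (limma adjusted p = 0.0195), without the WT mouse N9700, whose testis was the lowest WT one for Papss1. The remaining 5 probe sets differed by -0.05 to 0.18. In all 2 of 7 members did not overlap between the genotypes, against 13.7% of all named probe sets.

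In kidney 0 members were called, against 0.104% of all named probe sets, and 129 of the 962 had an unadjusted p under 0.05 in limma. Papss1 lay lower in all 5 DKO kidneys, at 9.79, 9.78, 9.72, 9.89 and 9.77, against 10.18, 10.39, 9.90 and 10.14 in WT kidneys. The difference was -0.35 ± 0.09 and did not pass the test (SE, limma adjusted p = 0.249). It was 1 of the 7 members without overlap, where 3.33% of all named probe sets had none. Sult1d1 differed by -0.35 ± 0.13 (SE, limma adjusted p = 0.293), Sult1a1 by 0.25 ± 0.15, Sult1c2 by -0.20 ± 0.12 and Ugt1a6b by -0.17 ± 0.12. Both Ugt2b5 probe sets were within 0.09 of no difference.

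**Figure D4:**
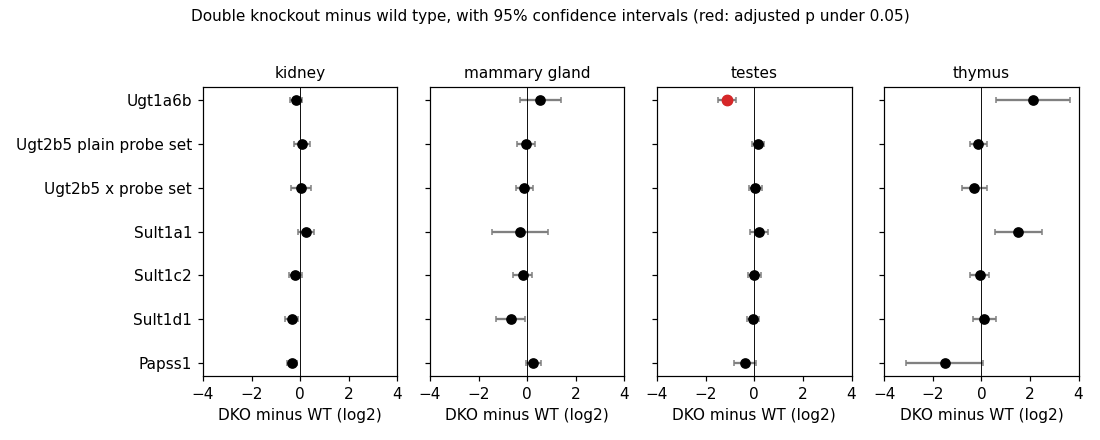
DKO minus WT difference (log2, points, with 95% confidence intervals) of the 7 member probe sets in kidney, mammary gland, testes and thymus, with every array under its label. The single red point, Ugt1a6b in testes at -1.14, passed the threshold, and the widest differences are the thymus values of Ugt1a6b (2.13), Sult1a1 (1.52) and Papss1 (-1.51).

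Thymus held the widest differences and 0 called members, against 0.0% of all named probe sets, and 202 of the 962 had an unadjusted p under 0.05 in limma. Ugt1a6b read 6.85, 7.88, 7.40, 8.03 and 8.70 in DKO thymus, against 5.08, 5.30 and 7.35 in WT thymus. The 2 low WT values were those of N3738 and N3740, the arrays that did not resemble thymus. With all arrays Ugt1a6b differed by 2.13 ± 0.65, Sult1a1 by 1.52 ± 0.41 and Papss1 by -1.51 ± 0.67 (SE, limma adjusted p = 0.233, 0.233 and 0.247). Without those 2 arrays, and so with 1 WT thymus whose spread was taken to equal that of the DKO group, they differed by 0.69 ± 0.58, 0.57 ± 0.26 and 0.27 ± 0.18 (SE, limma adjusted p = 0.989 for each). The 2 arrays also carried markers that other thymus arrays lacked, with a log2 of the summed level of 13.6 and 13.5 for secretory gland epithelium and 10.4 and 10.6 for intestinal epithelium. Not every marker of these lists was high there. In N3738 and N3740 the secretory Prol1 read 13.51 and 13.41 and the intestinal Muc13 10.24 and 10.41, but Muc5b read 5.54 and 5.92, and Lgals4, at 6.30 and 6.79, lay below the 7.11 to 7.66 of the other thymus arrays.

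Mammary gland had 0 members called, against 0.0% of all named probe sets, with 97 of the 962 at an unadjusted p under 0.05 in limma. Sult1d1 read 2.51, 2.88, 2.65, 2.62 and 2.97 in DKO glands, against 3.85 and 2.91 in WT glands. The high value was that of N3738, whose kidney tubule markers were also highest among these 7 glands, at 7.45 against 5.53 or less. The difference of -0.68 ± 0.24 (SE, limma adjusted p = 0.456) was -0.21 without that mouse. The part of the kidney tubule markers in the Sult1d1 difference was not tested. Ugt1a6b differed by 0.55 ± 0.35 and Papss1 by 0.26 ± 0.12 (SE, limma adjusted p = 0.660 and 0.538).

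Averaged over the 4 tissues with the mouse as a random block, 0 members were called, against 0.832% of all named probe sets, and 248 of the 962 had a raw p under 0.05 in limma. Papss1 averaged -0.48 ± 0.21, Sult1a1 0.42 ± 0.19, Ugt1a6b 0.33 ± 0.23 and Sult1d1 -0.23 ± 0.10 (SE, limma adjusted p = 0.155, 0.180, 0.357 and 0.148). Without the thymus arrays of N3738 and N3740 the averages were -0.051 for Papss1, 0.17 for Sult1a1 and -0.021 for Ugt1a6b. Sult1d1 lay between -0.37 and -0.13 over all alternatives. Whether the knockout difference varied between tissues was tested as well. Of all named probe sets 3.43% were called, among them Ugt1a6b (limma adjusted p = 0.0249), whose difference was positive in thymus and mammary gland and negative in testes and kidney. With the thymus arrays of N3738 and N3740 left out this adjusted p was 0.183, and leaving out any 1 of 5 of the 9 mice also ended the call. None of the conjugation lists around the members had a called probe set in the 4 tissues.

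The St6galnac2 knockout was compared in thyroid, lymph node, brain and intestine, and 0 members were called, as were 0.0% of all named probe sets in each, with 42, 33, 3 and 2 at an unadjusted p under 0.05 in limma. Ugt1a6b read 5.53, 5.06 and 5.90 in KO thyroid, against 5.35, 5.43 and 5.59 in WT thyroid, and differed by 0.04 ± 0.23 (SE, limma adjusted p = 0.999). In lymph node it differed by -0.77 ± 0.80, with the WT array of 9094 setting the spread. Brain and intestine hold the arrays of mouse 9099 that resembled each other's tissue, and their values turned with them. Ugt1a6b differed by -0.71 ± 0.86 in brain with all arrays and by 0.34 ± 0.21 without that array. In intestine it differed by 1.36 ± 2.62 with all arrays and by -0.54 ± 0.32 without that one (SE).

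Without the array of 9099, the KO minus WT values of Ugt2b5 in intestine were -2.47 ± 0.63 on the x probe set and -2.61 ± 0.84 on the plain one (SE, limma adjusted p = 0.486 and 0.588), with 2 mice on each side. Sult1d1, high in the same intestines, differed by -0.29 ± 0.14 (SE, limma adjusted p = 0.850).

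The genes whose 8 tissue means followed each member most closely are given as a description, over tissues that share mice and lines. Sult1d1 was closest to Khk, ketohexokinase, at r = 0.992, Slc35a3 at 0.974 and Cdhr5 at 0.945. Sult1c2 was closest to Igfbp1 at 0.991, Esm1 at 0.982 and Gcnt1 at 0.976. For Ugt2b5 the plain probe set was closest to Clec2h at 0.994, Sult1b1 at 0.990 and Erbb3 at 0.988, and the x probe set to Clec2h at 0.990, Erbb3 at 0.981 and Ihh at 0.979.

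For Ugt1a6b the closest were Alg10b at 0.927, Npl at 0.916 and B3gnt7 at 0.914, and for Papss1 they were Pigq at 0.893, Atrnl1 at 0.892 and Ybx1 at 0.889. Sult1a1 was closest to Ccr2 at 0.962, Clec4a3 at 0.958 and Tgfbr3 at 0.957, of which Ccr2 and Clec4a3 are leukocyte genes. Between different member genes Sult1d1 and Ugt2b5 x were most alike at 0.901.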

How the data were processed

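Total RNA extracted with Trizol was made into biotin-labelled cRNA and hybridised to custom Affymetrix arrays, per the labels' protocols. The deposited values are log2 levels per probe set, made by the authors with RMA per the submitters' processing notes, which corrects background, normalizes by quantiles and summarises probes, so levels near the floor are compressed. No version or genome build is given in the sources used here. All 60 arrays held 1246 probe sets, with array medians of 5.30 to 5.76. The number of arrays limits the precision.

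Probe sets were named through their RefSeq identifiers and the RefSeq gene table of GRCm38.p6 (962 named, 908 genes, 284 unnamed), which also gave chromosomes and promoter windows. Differences were tested over the 962 with limma 3.58.1 in R 4.3.3 (lmFit, eBayes) and Benjamini-Hochberg adjustment at 0.05. Fits of the same kind were also run on simulated data. Knockout fits used the samples of 1 tissue with sex as a covariate, and the tissue fit used all groups of both lines. Arrays correlating under 0.3 with their labelled tissue stood apart, a limit chosen after the values were seen. The same mice gave several tissues, which pairs the samples across tissues. The mouse was therefore a random block in fits over several tissues of the first line (estimated correlation 0.0737). In the tissue fit it was an alternative (0.0187). No pairing across genotypes is labelled. In the second line KO and WT mice of the same sex carry neighbouring numbers. In the first line the DKO mice are N5891 to N5895 and the WT mice N3738, N3740, N9686 and N9700. What these numbers stand for is not given in the sources used here, and their part in the knockout differences was not tested.

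Every member probe set was named in each comparison, pathway genes where they were called or had the smallest p, and for each member the 3 genes most alike over 8 tissue means. Members and lists were chosen with earlier results of these data known. Alternatives were another normalization, array centring, a filter at the 25th percentile, all probe sets, other covariates and samples, and each mouse left out.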

Additional observations from a re-analysis of the deposited data

Results flagged for a closer look

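In groups of 4 to 10 mice, 28 combinations of a group and a member probe set were examined for 1 mouse far from the others. Of these 2 were found, where chance gives about 1 in 20, so the number found is near that rate. Sult1a1 in DKO kidney read 7.53 in N5893, above the other 4 mice at 6.95 to 7.10. Papss1 in DKO thymus read 8.23 in N5894, below the other 4 at 8.47 to 8.56.

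The DKO minus WT difference of Ugt1a6b varied between the 4 tissues (limma adjusted p = 0.0249), with 2.13 in thymus, 0.55 in mammary gland, -1.14 in testes and -0.17 in kidney. With the thymus arrays of N3738 and N3740 left out the adjusted p was 0.183.

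The female minus male difference of the Ugt2b5 x probe set differed between kidney and mammary gland (limma adjusted p = 0.000164), at -1.84 in kidney, where females were lower in 3 of 3 against all 6 males, and -0.11 in mammary gland. The probe set averaged only 2.83 in mammary gland, and 5% of all deposited values are below 2.96. A sex difference could hardly be seen at that level, so the test adds little to the kidney difference.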

How the results depend on the processing

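Of the values of single members recomputed under the alternatives, 1645 kept their direction and side of the threshold, 24 passed it newly, 28 no longer passed it and 10 turned sign. The counts of called members stayed within 1.5 times in 222 cases and moved in 27. For DKO minus WT, fitting all groups of the line together gave 3 called members in thymus, 0 in testes and 1 in mammary gland, in place of 0, 1 and 0. A second quantile normalization gave 0 in testes, as did leaving out N3738 and N3740, which leaves 1 WT testis whose spread is taken from the DKO group. With each mouse left out in turn the count ran over 0 to 4 in thymus and 0 to 2 in testes. It ran over 0 to 3 for the mean over tissues and 0 to 3 for the difference between tissues. The highest of each came without the WT mouse N9700, when Papss1 in thymus was -2.41. The only WT thymus arrays left were then those of N3738 and N3740, which did not resemble thymus. Without the thymus arrays of N3738 and N3740, 0 members differed between tissues. The sex difference between kidney and mammary gland called 1 to 3 members with each mouse left out. A filter on low values left 3 called members in thyroid, in lymph node and in intestine, in place of 5. The filter removed both Ugt2b5 probe sets, called in those tissues without it, from the test, and Sult1c2 as well. Without N3738 and N3740, or without their 2 thymus arrays, Ugt2b5 x in thymus turned to 0.15 and Papss1 there to 0.27, and the mean of Ugt1a6b over tissues turned to -0.021 without the 2 arrays. Papss1 in testes turned to 0.063 without both mice, Sult1c2 in mammary gland to 0.039 without N3738 and without both (-0.39 to 0.039 with each mouse left out), and Sult1a1 in testes ran over -6.37e-05 to 0.29 with each mouse left out. With all arrays under their labels Papss1 in thymus against the other tissues was 0.027, and the brain calls of Ugt2b5 were lost, at -0.84 on the plain and -0.94 on the x probe set. The mammary gland call of Papss1 fell under 1 in 5 alternatives, at 0.79 with all arrays under their labels. The cause of these changes was not tested. The replicate block changed no call: with and without the mouse as a block, 77 member values kept direction and side of the threshold and 11 counts of calls stayed the same within 1.5 times, as with Papss1 in mammary gland at 1.08. Signals of Ugt2b5, Sult1c2 and Sult1d1 outside kidney and intestine lie near the array's floor, so differences there may be below what these arrays resolve.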

Other observations

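Ugt8a carries a UGT symbol but transfers galactose in the making of myelin lipids, and it was read here as a neural and glial marker. It was 6.02 ± 0.37 higher in brain than in the other 3 tissues of its line and 3.91 ± 0.33 higher in kidney (SE, limma adjusted p = 2.61e-18 and 1.01e-13). In kidney it was also lower in females than in males, by -2.95 ± 0.16 (SE, limma adjusted p = 2.01e-06), the same direction as Ugt2b5, and the kidney difference minus the mammary gland difference was -2.55 ± 0.55 (SE, limma adjusted p = 0.00901). It was chosen for mention after its values were seen.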
